A study of Drosophila melanogaster with 3 samples.

Results

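Kenyon cells of adult flies that lacked the serotonin transporter were compared with those of wild-type flies at 4 to 6 days of age, in the deposited comparison of dSERT-TMKO with wild type (WT). Every gene with a value in a Kenyon cell cluster was taken, 9427 of the 17824 features of the count matrix, and read as gene families and functions in each cluster. Kenyon cells are the intrinsic neurons of the mushroom body, the centre of olfactory learning in the fly brain. Their axons form the gamma, alpha/beta and alpha-prime/beta-prime lobes, and serotonin released onto them acts through G protein-coupled receptors that alter cyclic AMP and calcium. The transporter, encoded by SerT, takes serotonin back up into the neurons that release it, and it is the target of many antidepressants.

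Flies of the mutant arm were homozygous for dSERT-TMKO, a CRISPR allele that lacks part of the membrane-spanning region near the start of the protein and is out of frame beyond it. The WT arm carried the second chromosome of w1118, the strain to which the deletion had been outcrossed. Both arms carried Mef2(P247)-gal4 driving UAS-nls.GFP, and each replicate was marked by 1 copy of chromosome 3 from its own wild-type strain of the DGRP panel. Brains were pooled with the optic lobes removed, GFP-positive cells were sorted, and TMKO and WT cells were loaded together with cells of flies fed citalopram (CIT) or its vehicle (VEH) into 1 library. Not all Kenyon cells are sampled evenly with this driver, and alpha-prime/beta-prime cells are underrepresented. Cells were assigned to strains from their sequence variants, a map that was not analysed here.

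The library held 3089 barcodes with 21831009 UMIs (unique transcript tags), and 2996 cells passed 1000 UMIs with at most 20% mitochondrial UMIs, with a median of 7146 UMIs and 2037 genes. It shared 1 and 11 barcodes with the other 2 libraries of the series. After 26 predicted doublets were removed, 2929 of 2970 clustered cells (98.6%) lay in clusters that carried Kenyon cell markers. The exact Clopper-Pearson interval of 98.1 to 99.0% covers counting error only, and not error in naming whole clusters. Gamma-like cells numbered 1499, alpha/beta-like cells 1293, and 137 Kenyon-like cells had no subtype name. The markers ey, toy, mub, Dop1R2, prt and Pka-C1 stood between 651 and 10024 CPM in Kenyon-like cells (CPM relates a gene's UMIs to all UMIs of the class), while VGlut, Gad1 and Vmat were at or below 0.239 CPM and the haemocyte marker Hml was at 0 UMIs. The glial markers repo, alrm and Eaat1 stood at 1.72 to 4.55 CPM, nearly all of it in the 137 cells with no subtype name. These classes were rebuilt from the pooled library and are not the clusters of the comparison, which are KC_G1 and KC_G2 (gamma), KC_AB1 and KC_AB2 (alpha/beta) and KC_ABp1 (alpha-prime/beta-prime). All CPM values and cell counts given here are of the whole pool, not of TMKO and WT cells alone. By the study's cell counts, more of the pool came from CIT and VEH flies than from TMKO and WT flies.

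The question was which genes differ in the mutant once the flies have lived as adults for several days. Log2 fold changes are TMKO over WT, and calls required an adjusted p no greater than 0.05 and a change of 1.5-fold or more, up or down. The p-values come from a DESeq2 likelihood-ratio test over strains in each cluster. The number of strains behind each value is not in the tables, so the error after each ± is an approximate SE recovered from the unadjusted p, with no n. Over the 5 clusters 15 of 37323 values were called (0.0402%), in 12 genes, 6 of the calls higher (0.0161%) and 9 lower (0.0241%) in the mutant. KC_G1 held 7 calls (0.0809% of 8657 genes, 0.0231% higher and 0.0578% lower), KC_G2 held 4 (0.0536% of 7467, all higher) and KC_AB1 held 4 (0.0491% of 8146, all lower). No gene was called in KC_AB2 or KC_ABp1 by DESeq2, where 12 of 6598 and 11 of 6455 genes had an unadjusted p of at most 0.05 (0.182% and 0.170%). In KC_G1, KC_G2 and KC_AB1 that share was 0.855%, 0.884% and 0.454%, with 74, 66 and 37 genes. Split by direction, genes at that p with a higher value were 0.381% in KC_G1, 0.589% in KC_G2, 0.184% in KC_AB1, 0.0758% in KC_AB2 and 0.0775% in KC_ABp1. Genes at that p with a lower value were 0.474%, 0.295%, 0.27%, 0.106% and 0.093% in the same order, and over all clusters the shares were 0.273% and 0.263%, together 0.536%. Values below 0 made up 49.4% of all values, from 44.7% in KC_AB2 to 52.2% in KC_G2, which is the background for the lists that follow. The middle 50% of log2 fold changes spanned 0.59 in KC_G1 and 0.70 in KC_AB1, against 1.02 in KC_G2, 1.33 in KC_AB2 and 1.42 in KC_ABp1. A change of a given size was therefore smaller beside the spread over genes in the last 3, though this spread is not the error of a single gene.

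**Figure D1:**
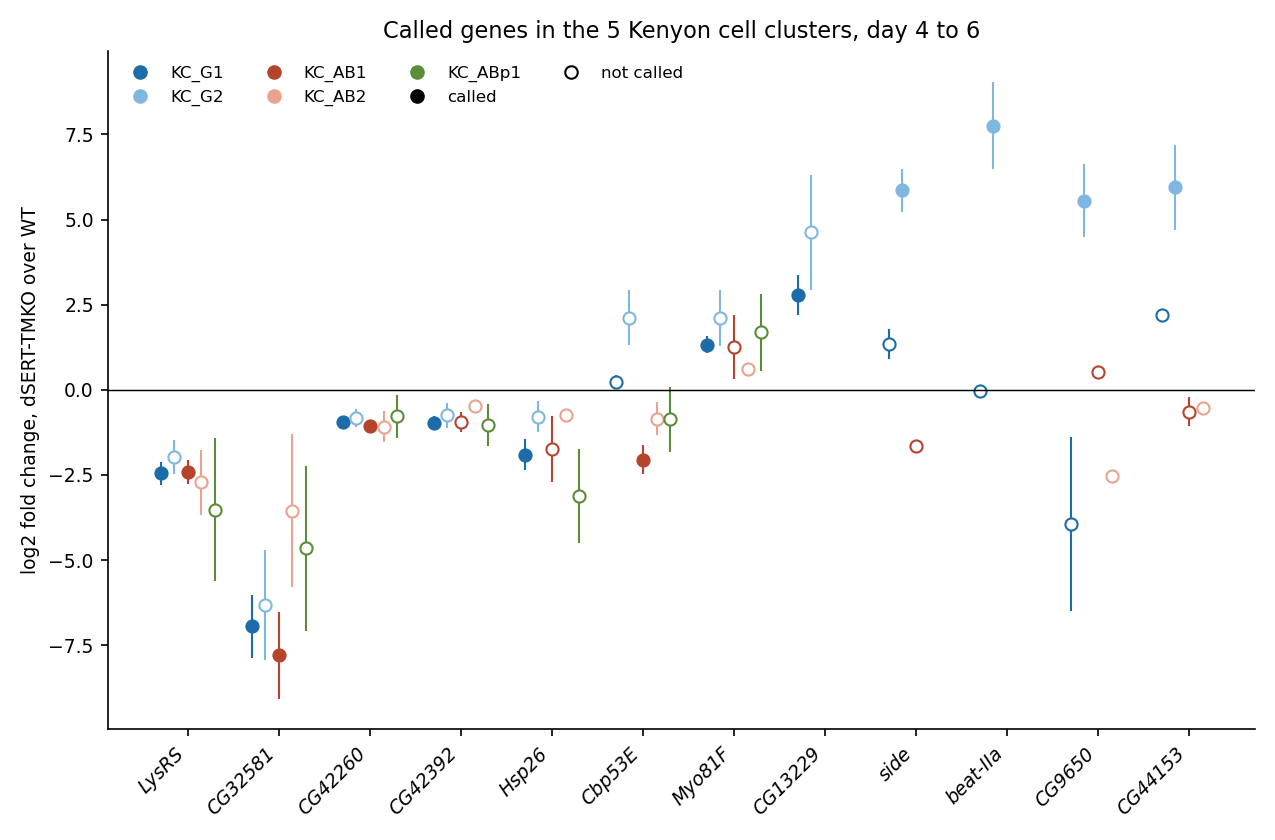
Log2 fold change (TMKO over WT) of the 12 called genes in each of the 5 clusters, with filled points where the gene was called and bars of 1 approximate SE where the unadjusted p was 0.5 or less. LysRS, CG32581, CG42260 and CG42392 lie below 0 in all 5 clusters, while the 4 genes at the right are high in KC_G2 alone among the called values.

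LysRS, which encodes lysyl-tRNA synthetase, the enzyme that charges lysine tRNAs, was lower in KC_G1 (-2.45 ± 0.34, adjusted p 1.19e-09) and in KC_AB1 (-2.40 ± 0.35, adjusted p 3.84e-08). Its values in the clusters where it was not called were -1.98 in KC_G2 (adjusted p 0.0834), -2.72 in KC_AB2 (unadjusted p 0.00477) and -3.52 in KC_ABp1 (unadjusted p 0.0951). All 5 values lay below 0, and the difference between KC_G1 and KC_AB1 was -0.05 ± 0.49 (adjusted p 0.960). In the deposited comparison of TMKO with WT at eclosion (day 0), LysRS was already called lower in KC_G1 (-0.88, adjusted p 0.0191) and KC_G2 (-1.91, adjusted p 4.09e-05). Under citalopram at 4 to 6 days its 5 values lay above 0, from 0.35 to 1.13. None of these was called, and the unadjusted p was 0.00136 in KC_G2 and 0.0255 in KC_AB2. The enzyme was read at 194 CPM, in 1693 of 2929 Kenyon-like cells, at 174 CPM in gamma-like and 245 CPM in alpha/beta-like cells. Of the other 37 aminoacyl-tRNA synthetase genes and complex factors with a value in KC_G1, none had an unadjusted p of at most 0.05. Over all genes that share was 0.855% there and 0.454% in KC_AB1, so none of 37 is near the background. The median of the 37 in KC_G1 was -0.09, with values from -1.36 to 0.94. In KC_AB1 the other 37 had a median of -0.04, and again none reached that p, the nearest being TyrRS, a tyrosyl-tRNA synthetase, at -1.19 (unadjusted p 0.126).

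No cytoplasmic ribosomal protein gene was called in any cluster, but nearly all had values below 0 in both gamma clusters. In KC_G2, 78 of 84 members lay below 0 (92.9%) against 52.2% of all genes, with a median of -0.30 against -0.03. In KC_G1 it was 78 of 86 (90.7%) against 50.7%, with a median of -0.09 against -0.01. In KC_AB1 the list was split, with 42 of 85 below 0 (49.6% of all genes) and a median of 0.00, and in KC_AB2 and KC_ABp1 the medians were 0.01 and -0.03. All genes at 50 CPM or more had medians of -0.03 in both KC_G1 and KC_G2, with 56.7% and 53.7% of them below 0. Both subunits had like values. In KC_G2 the median was -0.31 over 50 large subunit genes and -0.27 over 34 small subunit genes. Members with an unadjusted p of at most 0.05 in KC_G2 numbered 5, all large subunit genes and all lower: RpL41 (-0.60), RpL13 (-0.65), RpL24-like (-0.98), RpL15 (-0.45) and RpL21 (-0.45). That is 5.95% of the list, against 0.295% of all genes. RpL41 was also at that p in KC_G1 (-0.37, unadjusted p 0.0122), and all 5 of its values were below 0, from -0.60 to -0.05. RpL41 is the most abundant of the list (2393 CPM), and its adjusted p was 0.997 or above in both gamma clusters. It lies within 1 Mb of SerT, the gene altered in the mutant. These shifts are under the 1.5-fold minimum for the list as a whole, and members of 1 list in 1 cluster share the same cells, strains and size factors.

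Of the factors that start and extend translation, KC_G2 had 31 of 42 below 0 and a median of -0.24, and 3 were lower at an unadjusted p of at most 0.05. These were eEF1alpha2 (-0.50), which delivers charged tRNAs to the ribosome, eIF4A (-0.42), an RNA helicase of initiation, and eIF3i (-0.98), a subunit of an initiation complex. In KC_G1 30 of 44 lay below 0, with a median of -0.06, and in KC_AB1 22 of 42, with a median of -0.02. For mitochondrial ribosomal proteins the values lay on both sides of 0. In KC_G2, 37 of 72 lay below 0, and in KC_G1 34 of 72. No member had an unadjusted p of at most 0.05 in any cluster, against 0.536% of all values. The proteasome, which degrades proteins, had medians of 0.08 in KC_G1 and -0.10 in KC_G2, and again no member at that p.

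**Figure D2:**
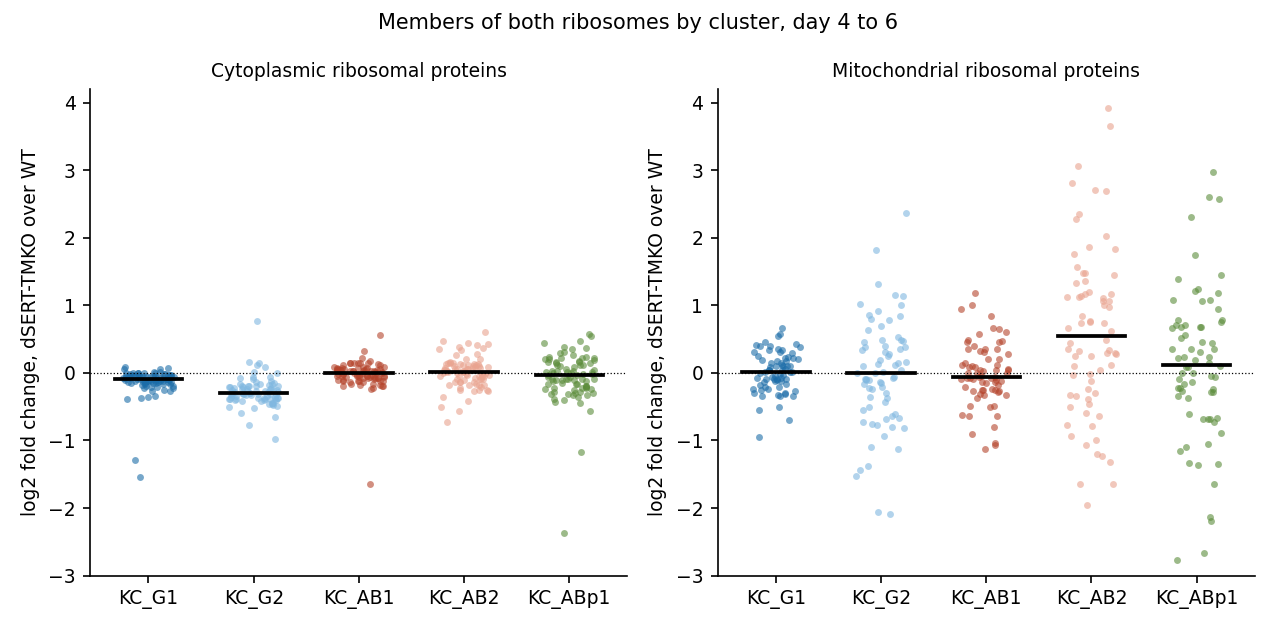
Log2 fold change (TMKO over WT) of each cytoplasmic ribosomal protein gene (left) and each mitochondrial ribosomal protein gene (right) in the 5 clusters, 1 point per gene with a black line at the median. Cytoplasmic members lie almost wholly below 0 in KC_G1 and KC_G2 (medians -0.09 and -0.30), and mitochondrial members lie on both sides of 0.

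The same lists were read in 2 of the other deposited comparisons, which have control flies of their own. In TMKO flies dissected at eclosion (day 0), relative to their own WT, 77 of 84 cytoplasmic ribosomal protein genes lay below 0 in KC_G2 (median -0.17, against 50.4% of all genes) and 79 of 86 in KC_G1 (median -0.11, against 52.4%). Members with a lower value at an unadjusted p of at most 0.05 numbered 9 and 4, against 0.61% and 0.823% of all genes. Under citalopram at 4 to 6 days, 73 of 85 lay below 0 in KC_G2 (median -0.14, against 49% of all genes) and 72 of 87 in KC_G1 (median -0.05, against 54%), with 8 and 1 members lower at that p, against 0.476% and 1.05% of all genes. No member was called in either. Translation factors had medians of -0.05 and 0.02 in KC_G2 in these comparisons.

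Among stress genes Hsp26, which encodes a small heat shock protein, was lower in KC_G1 by a narrow margin (-1.90 ± 0.46, adjusted p 0.0498), and its other values were -0.78 in KC_G2, -1.75 in KC_AB1, -0.74 in KC_AB2 and -3.12 in KC_ABp1 (unadjusted p 0.025). It was read at 399 CPM in 1163 Kenyon-like cells, and the 151 with most of it held 50% of its UMIs. Of the small heat shock genes, 5 of 6 lay below 0 in KC_G1 (median -1.56), 5 of 5 in KC_AB1 (median -2.21), 3 of 4 in KC_AB2 and 2 of 3 in KC_ABp1, but 1 of 5 in KC_G2 (median 0.18). Hsp27 had -1.59 in KC_G1 (unadjusted p 0.0196) and -3.98 in KC_AB1 (unadjusted p 0.0789). Hsp23 had -1.58 in KC_G1 and -3.41 in KC_AB1, neither under an unadjusted p of 0.05. Of the larger chaperones and co-factors, 11 of 19 lay below 0 in KC_G1 (median -0.10) and 9 of 20 in KC_AB1 (median 0.08), and their difference from the small ones was not tested. The inducible members among them, some of them near-identical copies whose reads may be shared, spread widely. Hsp70Ab had -1.01 in KC_G1 (unadjusted p 0.00365), Hsp70Aa -2.19 in KC_G1 and -4.17 in KC_AB1, Hsp68 -1.17 and -2.90, and Hsp70Bc -1.91 and 0.44, of which only the first had an unadjusted p of at most 0.05. Hsp70Bb had 0.59 and -0.60. Hsp83, the fly Hsp90 and the most abundant of the list (855 CPM), lay between -0.44 and 0.48 with no unadjusted p of at most 0.05. Small heat shock medians were also below 0 in each of the 5 clusters in the day 0 comparison, from -2.31 to -0.79, and under citalopram, from -2.04 to -0.72.

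In KC_ABp1 all 11 genes of the mitochondrial genome with a value were above 0, from 0.81 to 1.90, with a median of 1.43 against 0.02 over all genes, of which 49.1% lay below 0. Of these, 4 had an unadjusted p of at most 0.05, all higher: mt:ATPase6 (1.76, unadjusted p 0.000232), a subunit of ATP synthase, and mt:CoIII (1.46), mt:CoII (1.23) and mt:CoI (1.16), the 3 mitochondrially encoded subunits of cytochrome c oxidase. They made up 4 of the 5 genes that were higher at that p in that cluster, but none was called (each adjusted p 1). Nuclear genes for the same complexes in KC_ABp1 had medians of 0.08 for complex I and 0.10 for complexes II to V. mt:ATPase6 also had 0.91 in KC_G1 (unadjusted p 0.00155) and 1.29 in KC_G2 (unadjusted p 0.0165), with values above 0 in all 5 clusters, while mt:ND5, a subunit of complex I, had -0.57 in KC_G1 (unadjusted p 0.00767). In the other 4 clusters the mitochondrial genes lay on both sides of 0, with medians from -0.35 in KC_AB2 to 0.01 in KC_G2. Per the study, KC_ABp1 held the fewest cells of this comparison. In the pooled library the 148 cells of a gamma-like cluster led by mitochondrial genes had medians of 5.52% mitochondrial UMIs and 4080 UMIs. The other Kenyon-like clusters had 1.03 to 2.07%. Among these, the 137 cells of the cluster with mamo and trio but low in sNPF and Fas2 had 1.33%. The part of cells high in mitochondrial UMIs in the shift was not tested. In the day 0 comparison 12 of 13 mitochondrial genes lay below 0 in KC_ABp1 (52.5% of all genes), with a median of -0.84 and 7 lower at an unadjusted p of at most 0.05 (0.417% of all genes).

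Nuclear oxidative phosphorylation genes lay below 0 in KC_G2, 29 of 35 for complex I (median -0.24) and 32 of 34 for complexes II to V (median -0.17). COX6B, a nuclear subunit of cytochrome c oxidase, was the member with an unadjusted p of at most 0.05 there (-0.58, unadjusted p 0.0371). In KC_AB2 the direction was the other way, with 3 of 33 genes of complexes II to V below 0 (median 0.45). There 44.7% of all genes lay below 0 with a median of 0.11, and no member reached that p. Under citalopram, KC_G2 had 31 of 34 below 0 for complex I and 28 of 34 for complexes II to V (49% of all genes). For complexes II to V its KC_AB2 had 32 of 34 below 0 (median -0.39, against 53.2% of all genes). At day 0, KC_G2 had 18 of 34 and 25 of 35 below 0 (50.4% of all genes), and KC_AB2 19 of 34 for complexes II to V. Glycolysis genes had medians of -0.05 in KC_G1 and 0.11 in KC_G2, and Hex-A, a hexokinase, was the member at that p (-0.37 in KC_G1, unadjusted p 0.0375).

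**Figure D3:**
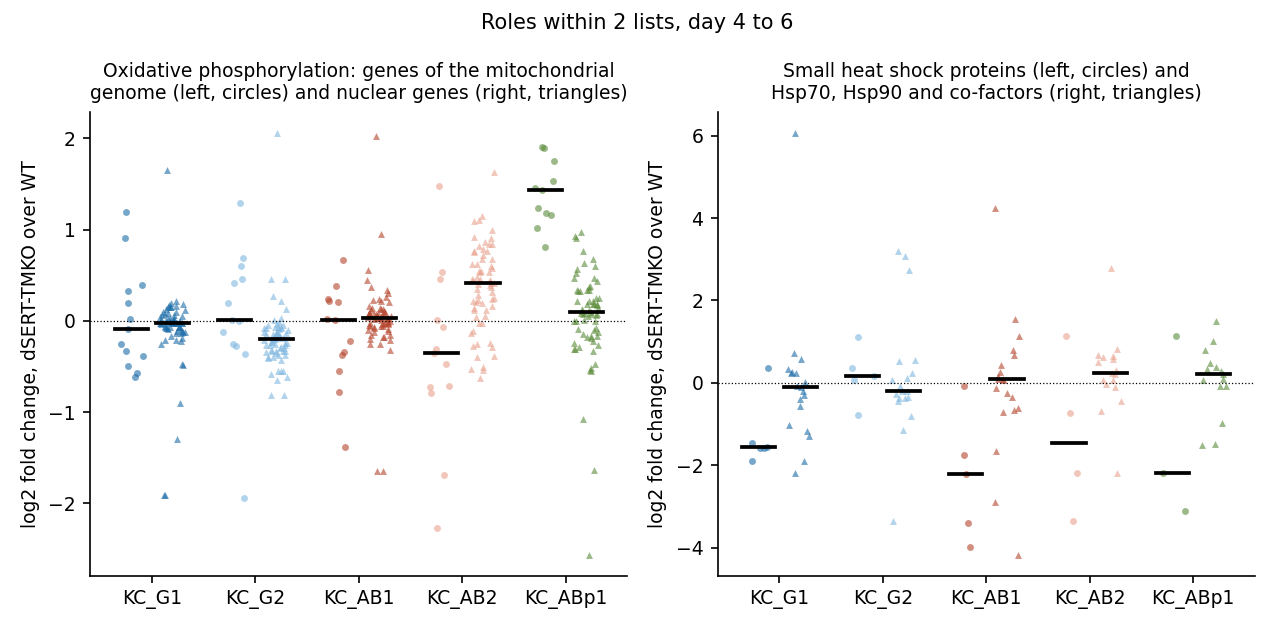
Log2 fold change (TMKO over WT) of oxidative phosphorylation genes (left panel, mitochondrial genome as circles and nuclear genes as triangles) and of heat shock genes (right panel, small heat shock proteins as circles and larger chaperones as triangles) in the 5 clusters, 1 point per gene with a black line at each median. The 11 mitochondrial genes with a value in KC_ABp1 lie between 0.81 and 1.90, and the small heat shock genes have medians of -1.56 in KC_G1 and -2.21 in KC_AB1.

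Ion channels held 1 called gene. CG42260 (FBgn0259145, BDGP6 arm 2R, 22740999 to 22798289), annotated as a cyclic nucleotide-gated channel, was lower in KC_AB1 (-1.08 ± 0.16, adjusted p 3.84e-08) and KC_G1 (-0.94 ± 0.14, adjusted p 1.52e-07). Its other values were -0.83 in KC_G2 (unadjusted p 0.00219), -1.08 in KC_AB2 (unadjusted p 0.0192) and -0.78 in KC_ABp1 (unadjusted p 0.213). The 5 values spanned 0.30 on the log2 scale, and the gene was abundant, at 1231 CPM with a UMI in 2861 of 2929 Kenyon-like cells. Channels of this family open when cyclic AMP or cyclic GMP binds, and the other members were looked at after this value was known. CngA had -1.36 in KC_G1 (unadjusted p 0.00353) and -2.42 in KC_AB2 (unadjusted p 0.0195) but 3.32 in KC_G2 (unadjusted p 0.314), at 32.4 CPM. Cngl, at 2106 CPM the most abundant of them, lay between -0.20 and 0.03.

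Other channels and receptors had few members past an unadjusted p of 0.05 and no call. In KC_G2 nAChRalpha7, a nicotinic acetylcholine receptor subunit, had 1.37 ± 0.34 (adjusted p 0.0679), just outside the threshold, and in KC_AB1 nAChRalpha3 had 4.05 (unadjusted p 0.00396) at only 16.0 CPM. Ca-alpha1T, the T-type calcium channel, had 1.33 in KC_G1 (adjusted p 0.118), and it was called when only genes at 50 CPM or more were tested. It is mainly an alpha/beta transcript here, at 1766 CPM in alpha/beta-like and 63.0 CPM in gamma-like cells, and its value in KC_AB1 was 0.05. NaCP60E, a sodium channel (-0.46, unadjusted p 0.0097), and Itpr, the inositol trisphosphate receptor (-0.88, unadjusted p 0.0358), had unadjusted p-values of at most 0.05 in KC_G1. SK, a calcium-activated potassium channel, was above 0 in all 5 clusters, from 0.25 to 1.16, with an unadjusted p of 0.0437 in KC_G2 and 0.0461 in KC_ABp1. Receptors for GABA and glutamate, dopamine, and octopamine and tyramine had no member at that p in any cluster. Nor had the 34 synaptic vesicle and active zone genes, and over all genes and clusters 0.536% of values reached that p.

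Serotonin receptors were not called either. 5-HT1A stood at 976 CPM in alpha/beta-like and 192 CPM in gamma-like cells, and its log2 fold changes ran from -1.46 in KC_G2 (unadjusted p 0.084) to 0.11 in KC_AB1. 5-HT1B had 231 CPM in gamma-like and 56.1 CPM in alpha/beta-like cells, with values from -0.22 to 0.35. 5-HT2A, 5-HT2B and 5-HT7 stood at 6.47, 4.98 and 0.527 CPM and had no unadjusted p of at most 0.05. SerT itself had 0 UMIs in Kenyon-like cells and no value in any cluster, so these cells give no check of the deletion. In the cyclic AMP pathway downstream of these receptors, 21 of 28 members lay below 0 in KC_G1 (median -0.06), and the one member at an unadjusted p of 0.05 or less in any cluster was Pka-R2, a regulatory subunit of protein kinase A, in KC_AB1 (-0.24, unadjusted p 0.0383).

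**Figure D4:**
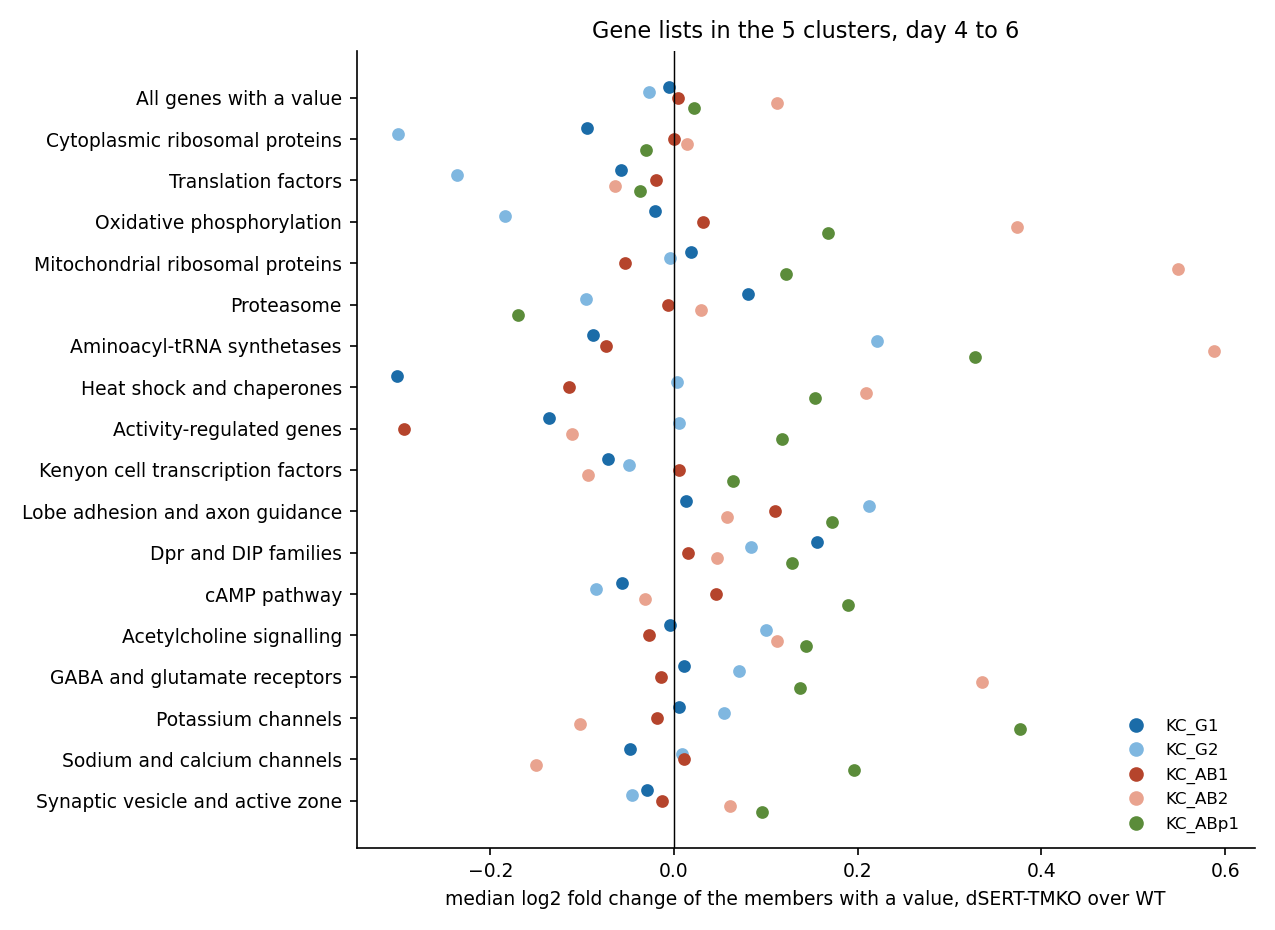
Median log2 fold change (TMKO over WT) of the members with a value in 17 gene lists and over all genes, 1 point for each of the 5 clusters. The lowest points in KC_G2 are the cytoplasmic ribosomal proteins at -0.30 and the translation factors at -0.24, and in KC_G1 the heat shock and chaperone list at -0.30.

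Cbp53E, a calbindin-like calcium-binding protein (2R, 16973927 to 16996057), was lower in KC_AB1 (-2.06 ± 0.42, adjusted p 0.0023), with -0.85 in KC_AB2 and -0.87 in KC_ABp1. In the gamma clusters the values were 0.22 in KC_G1 and 2.12 in KC_G2 (unadjusted p 0.00937). The difference between KC_G1 and KC_AB1, 2.28 ± 0.47 (adjusted p 4.84e-06), was the only one of 7 such differences to pass, although the gene entered this test because it had been called in one of the values. The clusters compared come from the same flies, which this SE does not take into account. Cbp53E was read at 290 CPM in gamma-like and 267 CPM in alpha/beta-like cells. Its highest level in a Kenyon-like cluster of the library, 1147 CPM, was in an alpha/beta-like cluster of 112 cells. Frq1, a frequenin-type calcium sensor, had -1.43 in KC_AB1 (unadjusted p 0.00451) and -0.44 in KC_G1 (unadjusted p 0.0118). Neuropeptide and peptide receptor genes held 4 members at an unadjusted p of at most 0.05 in KC_AB1, all higher, against 0.184% of all genes there. Among them were Dh44-R2, a receptor for diuretic hormone 44 and an alpha/beta transcript here (0.64), Nplp1, a neuropeptide precursor (1.63), and sNPF, the short neuropeptide F precursor of Kenyon cells (0.29). Of the 20 with a value in KC_AB1, 14 lay above 0, with a median of 0.27.

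Activity-regulated genes, those induced by neuronal firing, had values below 0 for 12 of 17 members in KC_G1 (median -0.14) and 12 of 16 in KC_AB1 (median -0.29), with no call. The most abundant, Hr38, had -0.27 in KC_G1 (unadjusted p 0.0927) and -0.41 in KC_AB1 (unadjusted p 0.262). The member at an unadjusted p of at most 0.05 was CG8910 in KC_G1 (-0.43, unadjusted p 0.0137). Transcription factors that define Kenyon cells lay below 0 for 17 of 22 members in KC_G1 (median -0.07), and pros was the member at that p, in KC_G2 (-0.65, unadjusted p 0.0028).

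In KC_G2 the called genes included 2 of the Beat and Side families. Side and Beat proteins are immunoglobulin-domain surface partners by which axons and their targets recognise each other. side (3R, 27375088 to 27437482) was higher by 5.86 ± 0.64 on the log2 scale (adjusted p 2.92e-16) and beat-IIa (3R, 17320004 to 17366119) by 7.76 ± 1.29 (adjusted p 6.59e-06). CG9650, a zinc-finger transcription factor gene (X, 7137723 to 7241932), had 5.55 ± 1.07 (adjusted p 0.000467), and CG44153 (2L, 10064121 to 10180256) had 5.95 ± 1.25 (adjusted p 0.00357). In KC_G1, side had 1.34 (unadjusted p 0.00275) and beat-IIa -0.04. The other 16 Beat and Side genes with a value in KC_G2 had a median of 0.10 and lay on both sides of 0, with 1 at an unadjusted p of at most 0.05: beat-IIb, at 4.51 (adjusted p 0.194). Lobe adhesion and axon guidance genes lay above 0 for 34 of 48 members in KC_G2 (median 0.21) and 35 of 50 in KC_AB1 (median 0.11). Members at that p were Ten-a, a teneurin (0.45 in KC_G2), Dscam2 (0.60 in KC_AB1) and Dscam3 (4.61 in KC_AB1). Sdc, the cell-surface proteoglycan syndecan, had 0.53 in KC_G1 (adjusted p 0.17), 0.67 in KC_G2 and 0.83 in KC_AB1, each at an unadjusted p of at most 0.05.

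The 4 genes called in KC_G2 were carried by few cells. Kenyon-like cells held 1041 UMIs of side, 244 of beat-IIa, 181 of CG9650 and 894 of CG44153, and the 25, 8, 9 and 73 cells with most of each held 50% of its UMIs. Cells with a UMI of 3 or 4 of these genes numbered 21 of 2929, all in 1 gamma-like cluster of 314 cells, and they held 47.2% of the side UMIs, 77.9% of beat-IIa, 61.9% of CG9650 and 9.51% of CG44153. Those shares follow in part from how the cells were picked. Also concentrated there were 2 genes not used to pick the cells, beat-IIb and Tektin-C. Both were chosen after their values were seen, so they give no independent support. The same 21 cells held 84.0% of the beat-IIb UMIs and 81.4% of those of Tektin-C, whose values in KC_G2 were 4.51 and 3.14 (adjusted p 0.194 and 0.184), against 0.966% of the UMIs of Pka-C1. The 21 cells carried the Kenyon cell markers. Set against all Kenyon-like cells, ey (394 against 651 CPM), toy (954 against 1304.5 CPM) and mub (4800 against 10024 CPM) were lower. Dop1R2 (1488 against 1022 CPM), prt (819 against 698 CPM) and Pka-C1 (6033 against 5770 CPM) were higher. The 21 cells had 0 UMIs of VGlut and Gad1 and a median of 9850 UMIs. Of the 41 cells that were not Kenyon-like, 27 also held a UMI of 3 or 4 of the genes. Over all 41, the level was 577 CPM for side, 332 CPM for beat-IIa, 752 CPM for CG9650 and 700 CPM for CG44153. CG44153 stood at 99.7 CPM in alpha/beta-like and 8.08 CPM in gamma-like cells, and 85 of its 96 UMIs in gamma-like cells were in the 21 cells. Whether the 21 cells came from mutant or WT flies, and whether they lie in KC_G2, was not tested, and with few cells of a kind in a cluster a change per cell and a change in their number cannot be told apart. Among genes at 50 CPM or more, which leaves all 4 out, KC_G2 had no call, but side stood at 49.9 CPM. Just outside the threshold in the same cluster, lncRNA:CR31451 had 0.88 ± 0.22 (adjusted p 0.0766) and CG44837 had 6.69 (adjusted p 0.055). CG44837 was read more widely, in 456 Kenyon-like cells, and the 21 cells held 6.54% of its UMIs. Even so, 19 of the 21 cells had a UMI of it.

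**Figure D5:**
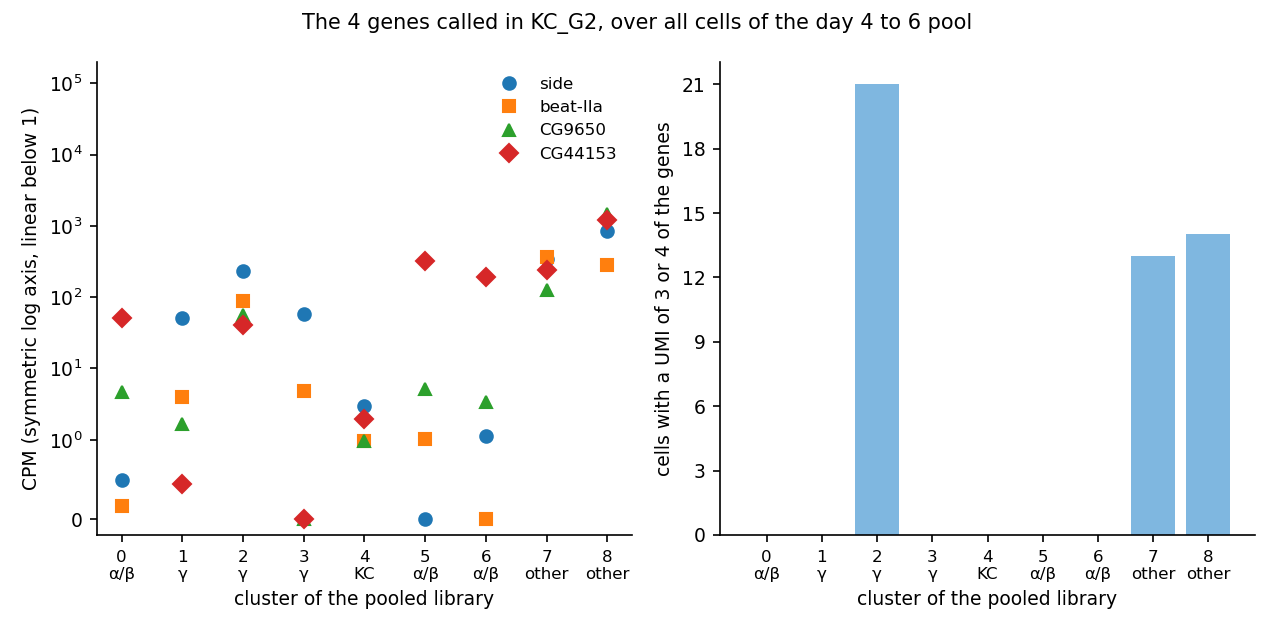
Level of the 4 genes called in KC_G2 in the 9 clusters of the pooled day 4 to 6 library (left, CPM on a symmetric log axis) and the number of cells with a UMI of 3 or 4 of them (right), with clusters marked as alpha/beta-like, gamma-like, Kenyon-like with no subtype name (KC) or not Kenyon-like (other). All 21 such Kenyon-like cells are in cluster 2, and clusters 7 and 8 hold 13 and 14.

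CG32581 (X, 15796908 to 15799162) was lower by more than any other called gene, with -6.95 ± 0.93 in KC_G1 and -7.79 ± 1.28 in KC_AB1 (adjusted p 6.56e-10 and 2.97e-06). It had -6.31 in KC_G2 (adjusted p 0.0834), -3.55 in KC_AB2 and -4.66 in KC_ABp1, and in the pool it stood at 64.2 CPM with a UMI in 968 Kenyon-like cells. Under citalopram, in flies of the same library, its values lay between -0.32 and 0.24. CG42392 (2R, 16765361 to 16766000) was lower in KC_G1 (-0.97 ± 0.20, adjusted p 0.00154) and had -0.75 in KC_G2 (unadjusted p 0.0388) and -0.94 in KC_AB1 (unadjusted p 0.00113). It lies 0.208 Mb from Cbp53E. CG42392 was also called lower at day 0, in KC_G1 (-0.75, adjusted p 3.64e-05) and KC_G2 (-0.99, adjusted p 0.000268). Its difference between the ages in KC_G1 did not pass the approximate z test (0.22 ± 0.24, adjusted p 0.601). Myo81F, a myosin heavy chain gene (3R, 567076 to 2532932), was higher in KC_G1 (1.33 ± 0.24, adjusted p 8.93e-05), with 4 other values above 0, from 0.62 to 2.12. The other 10 myosin genes with a value in KC_G1 held none at an unadjusted p of at most 0.05, against 0.855% of all genes there. CG13229 (2R, 11139304 to 11172206) was higher in KC_G1 (2.79 ± 0.59, adjusted p 0.00329) and had 4.62 in KC_G2 (unadjusted p 0.00588). It was nearly confined to gamma-like cells, at 14.7 CPM against 0.25 CPM in alpha/beta-like cells, and 109 Kenyon-like cells held a UMI.

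Agreement over clusters drew out a small set of genes with low single p-values. An unadjusted p of at most 0.05 with 1 sign in 3 or more clusters was met by 8 genes. LysRS, CG32581, CG42260, CG42392 and CG13739 (-0.34 in KC_G1, -0.66 in KC_G2 and -0.28 in KC_AB1) were lower, and Sdc, mt:ATPase6 and lncRNA:noe were higher. The last is among the most abundant transcripts of these cells, at 38595 CPM, with 0.25 in KC_G1, 0.26 in KC_AB1 and 0.51 in KC_AB2. Clusters are made of the same flies and are not replicates of each other.

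By position, 4 of the 12 called genes lay on 2R, the arm of SerT (33.3%, against 19.7% of the genes with a value and 24.2% of those at an unadjusted p of at most 0.05), and 3 on X (25.0%, against 17.1% and 26.8%). The 4 on 2R lay 1.61 (CG42260), 7.41 (Cbp53E), 7.64 (CG42392) and 13.2 Mb (CG13229) from SerT. Among the 210 genes within 1 Mb of SerT none was called, and 8 of their 877 values had an unadjusted p of at most 0.05 (0.912%, against 0.536% of all values). The smallest of these p-values was that of RpL41 in KC_G2 (-0.60, unadjusted p 0.00207), and the part of its position in that value was not tested. Hsp26, Myo81F, beat-IIa and side lie on chromosome 3, of which 1 copy differed between replicates by design, and the part of the strains in their values was not tested.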

How the data were processed

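Per the labels and the paper, the authors aligned and counted reads with Cell Ranger 7.0.0 (dm6) and deposited raw UMI counts per gene and barcode. With Seurat they clustered cells of at least 1000 transcripts and at most 20% mitochondrial reads, without doublets by genotype. Counts were summed per strain and cluster and compared with DESeq2. The authors' deposited tables give a log2 fold change and p-values, unadjusted and adjusted, per gene and cluster. A deposited column of -log10 p, limited at 18, was used for nothing. These are the authors' own comparison columns and were read because no map of cells to strains was analysed here. Adjusting the unadjusted p again by Benjamini-Hochberg, cluster by cluster, gave the deposited value for 99.98% of values (relative tolerance 0.001). In every cluster 5 gene names turned into dates were dropped.

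Here scanpy 1.11.5 and leidenalg 0.10.2 clustered the library (2000 variable genes, 10 principal components, 20 neighbours, resolution 0.3, seed 0), with Scrublet for doublets. A marker was detected in a cluster with a UMI in 25% of cells and a CPM of 25% of that in its highest cluster, and 4 Kenyon cell markers gave the name. Approximate SEs are the log2 fold change over the normal quantile of its p. Differences between 2 log2 fold changes were tested with a z statistic (two-sided, approximate, 22 tests adjusted by Benjamini-Hochberg). A run of this procedure on simulated normal values recovered the SE by construction, so it was no check of the approximate SE on these data. Genes were named where called, at an adjusted p up to 0.1 with the fold minimum, at an unadjusted p of at most 0.05 with 1 sign in 3 clusters, or as serotonin genes, and from each list by the 4 smallest p at 10 CPM or more and the 3 highest CPM. beat-IIb, Tektin-C, CngA, Cngl, the small heat shock and mitochondrial genes, RpL21, COX6B and the pooled cells with several KC_G2 genes were picked after their values were seen. The members and the 35 lists were chosen with earlier results of these data known, and some list symbols were corrected to the files' spelling. Positions are from the BDGP6 annotation (17738 of 17824 features).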

Additional observations from a re-analysis of the deposited data

Results flagged for a closer look

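For 10 of 22 tested differences of log2 fold changes the approximate z test passed (Benjamini-Hochberg adjusted p of at most 0.05). The genes entered because they had been called in one of the values compared, which enlarges such differences. Both ages come from separate flies and libraries, while the clusters compared come from the same flies, which the approximate SE does not take into account.

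Between day 0 and day 4 to 6, taking the later log2 fold change from the earlier one, LysRS gave 1.57 ± 0.39 (approximate SE) in KC_G1 and 1.42 ± 0.44 in KC_AB1, with adjusted p-values of 0.000198 and 0.00303 and day 0 values of -0.88 and -0.98. For CG42260 it was 0.66 in KC_G1 and 0.86 in KC_AB1 (adjusted p 0.000722 and 0.000266), and for CG32581 6.29 ± 1.83 in KC_G1 (adjusted p 0.00146), where the day 0 value was -0.66. In KC_AB1 the difference for CG32581 was of like size but did not pass (6.26 ± 3.40, adjusted p 0.121). The 4 genes called in KC_G2 differed too, by -5.91 for side, -8.12 for beat-IIa, -6.46 for CG9650 and -6.57 for CG44153, with day 0 values between -0.91 and -0.06. Between clusters at day 4 to 6, Cbp53E in KC_G1 minus KC_AB1 was 2.28 (adjusted p 4.84e-06).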

How the results depend on the processing

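The 15 calls became 14 with a limit of 0.01 on the adjusted p, and 14 again with p adjusted over all clusters together (Hsp26 lost in both), 20 at 0.1, 13 at a fold change of at least 2 (CG42260 and CG42392 in KC_G1 lost) and 15 with no fold minimum. Among genes at 10 CPM or more there were 14, without CG13229 and CG9650 and with CG44837, and at 50 CPM or more 12, with Ca-alpha1T and Pgant9 gained in KC_G1. In KC_G2 the 4 calls became 9 with the limit on the adjusted p at 0.1 and 0 at 50 CPM or more, since all 4 genes stand under 50 CPM, side by a little (49.9 CPM, and 53.0 with a minimum of 2000 UMIs). An alternative chosen after seeing the data, genes with a UMI in at least 20 Kenyon-like cells, gave 15 calls. The Kenyon-like share was 99.5% with a minimum of 2000 UMIs, 98.6% with no doublets removed and 97.9% at Leiden resolution 0.6. The share of small heat shock genes below 0 in KC_G1 was 100% over genes with a value in every cluster. The 10 list medians tried again kept their sign. The small heat shock median in KC_AB1 went from -2.21 to -3.41 over genes with a value in every cluster, and heat shock genes in KC_G1 from -0.30 to -0.20 at 10 CPM or more. Means in place of medians gave -0.20 for synthetases in KC_G1, 0.37 for lobe adhesion and -0.15 for translation factors in KC_G2. CPM over all cells above the minimum, which lets the cells that are not Kenyon-like in, was 25.2 for CG9650 and 18.6 for beat-IIa. A rule that raised the SE where p was over 0.5 left every SE of the 22 differences unchanged. It was therefore no check of the 10 that passed. No paired analysis was possible because the tables carry no replicate numbers and the strains behind each value were not analysed here, and no strain could be left out for the same reason. The spread over genes was widest in KC_G2, KC_AB2 and KC_ABp1. Whether it limited what could be called there was not tested, and KC_G2 held 4 calls.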
